A study of Mus musculus with 6 samples.

Results

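The liver lobule is divided by function, and 10 genes that mark this division were followed in the livers of L1-Tg and WT mice. They were listed by name, with earlier results of these data known. The pericentral genes were Glul, Oat, Slc1a2, Rgn and Axin2, and the periportal genes were Cps1, Ass1, Hal, Sds and Gls2. They are 10 of the 37074 genes on the array and were read by 14 of its probes, each matched through its RefSeq accession. Every gene had a probe well above background in all 6 arrays, so all 10 were among the 22323 genes tested.

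L1-Tg mice, of the strain B6;D2-Tg(APOE-NPC1L1)20Lqyu/J, carry human NPC1L1, an uptake transporter for cholesterol, under the APOE promoter, which drives it in hepatocytes. The line had been backcrossed to C57BL/6J for 8 or more generations, and hemizygous males were compared with their male WT littermates. Both genotypes received CFD, a standard mouse diet, and the methods give an age range of 6 to 12 weeks. Each of the 3 arrays per genotype held liver RNA pooled from 2 or 3 mice, labelled with Cy3 and hybridised to a 1-color array. The hour of collection was not given in the sources used here. Nothing in the sources says how the animals were divided among pools, so p-values measure only the spread between these pools. The RNA of the human transgene was not examined here, and the genotype was taken from the labels.

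Blood enters the lobule at the portal tract and leaves at the central vein. Periportal hepatocytes take up amino acids, release ammonia from them and turn it into urea, whereas a narrow rim of pericentral hepatocytes captures ammonia that has passed the urea cycle and builds glutamine from it. Wnt ligands from endothelial cells around the central vein hold the pericentral program on through beta-catenin and TCF/LEF factors, and Axin2 is a classical target of that pathway. RNA from whole liver holds no position, so the zone of each gene is background knowledge and was not observed in these samples.

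Promoters are shown for Ass1, which had the smallest p-value of the 10 genes, and for Hal and Slc1a2, which hold a TCF/LEF motif. RefSeq windows of GRCm38.p6, from 250 bases before to 50 after the gene start, were at hand for 6 of the 10 genes (Glul, Oat, Slc1a2, Axin2, Ass1 and Hal). The other 4 are Rgn, Cps1, Sds and Gls2. The motif CTTTGAA, its variant form CTTTGAT, the related heptamer CTTTGTA and the further variant written CTTTGTT were searched on both strands, and 5544 of all 32851 promoters of this length (16.9%) hold at least 1 of them. Hal holds CTTTGAT on the promoter strand at position -199 from the start, and Slc1a2 holds it on the other strand at position -207. The windows are Ass1 at chr2:31470020-31470319, Hal at chr10:93488518-93488817 and Slc1a2 at chr2:102706188-102706487, all on the plus strand and written 5′ to 3′. Capitals mark the motif, which a match describes as letters only.
Ass1: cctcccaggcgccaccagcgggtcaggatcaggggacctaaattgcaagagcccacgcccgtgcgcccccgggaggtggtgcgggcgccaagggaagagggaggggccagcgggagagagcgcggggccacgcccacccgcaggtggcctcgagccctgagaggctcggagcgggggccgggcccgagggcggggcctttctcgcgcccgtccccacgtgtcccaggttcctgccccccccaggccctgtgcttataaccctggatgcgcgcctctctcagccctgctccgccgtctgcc
Hal: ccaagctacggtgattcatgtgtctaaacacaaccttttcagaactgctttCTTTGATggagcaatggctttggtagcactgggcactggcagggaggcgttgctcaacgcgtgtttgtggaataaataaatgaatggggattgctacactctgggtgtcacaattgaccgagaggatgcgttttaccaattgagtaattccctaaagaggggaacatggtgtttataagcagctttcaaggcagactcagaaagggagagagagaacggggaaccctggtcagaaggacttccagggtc
Slc1a2: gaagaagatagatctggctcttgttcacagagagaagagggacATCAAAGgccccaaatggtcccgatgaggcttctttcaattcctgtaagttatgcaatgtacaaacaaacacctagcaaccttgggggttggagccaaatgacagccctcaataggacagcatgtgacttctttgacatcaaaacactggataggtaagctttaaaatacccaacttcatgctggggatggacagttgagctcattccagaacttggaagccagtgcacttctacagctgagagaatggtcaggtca

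Values are log2 processed signals after subtraction of the 75th percentile of each array, so 0 is the signal at that percentile. They compare pools for 1 probe and do not rank genes. The arrays had a 75th percentile between 296 and 378 intensity units, and 53.1 to 59.2% of probe spots were well above background. L1-Tg pool 2 stood apart in pancreas genes. The summed linear level of 5 pancreas markers on the array, each signal divided by the 75th percentile, was 35.1 in L1-Tg pool 2, 2.50 and 3.21 in the other L1-Tg pools and 2.19 to 2.40 in the WT pools. Ctrb1, which encodes chymotrypsinogen, was at 18.0 in L1-Tg pool 2 and 1.97 to 2.19 in the other 5 pools. Erythroid markers also summed to 321 in L1-Tg pool 2 against 149 to 175 in the other pools. The hepatocyte list, which includes albumin and other plasma proteins, summed to between 8428 and 10418 in L1-Tg pools and between 9119 and 10272 in WT pools. All 6 arrays lay on 1 slide, with the WT pools in row 1 and the L1-Tg pools in row 2, so slide row and genotype cannot be told apart.

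None of the 10 genes passed the test between L1-Tg and WT mice. All 5 periportal genes had lower means in L1-Tg, with a median difference of -0.36 on the log2 scale, whereas the pericentral genes had 2 higher and 3 lower means and a median of -0.02. Of all genes tested, 57.1% had a lower and 42.9% a higher mean in L1-Tg, and the median was -0.03. With limma and an adjusted p threshold of 0.05, 0 of 10 were called, and at an unadjusted p under 0.05 there was 1, Ass1. Over all genes tested limma called 29, or 0.13%, while 8.87% lay under 0.05 before adjustment, 4.37% with a lower mean. Pools of the genotypes did not overlap for Ass1 and Axin2, 2 of 10, beside 15.9% of all genes tested (8.7% lower and 7.21% higher in L1-Tg). In bulk liver, fewer cells of a type and less RNA per cell cannot be told apart.

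**Figure D1:**
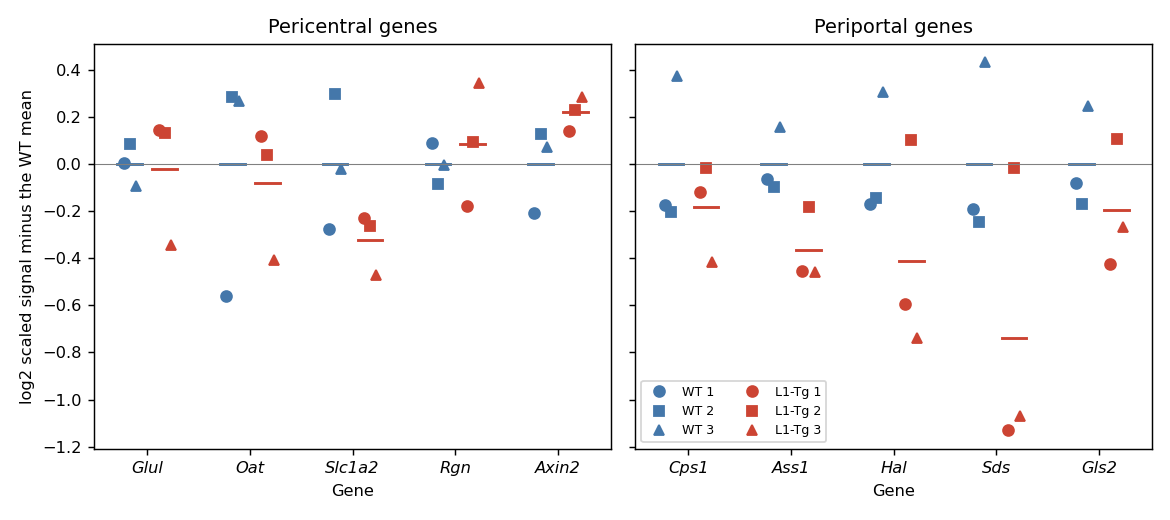
Log2 scaled signal of the 10 genes in each of the 3 L1-Tg and 3 WT pools, drawn as the deviation from the WT mean of the gene, with bars at the group means. All 3 L1-Tg pools lie below all WT pools for Ass1 and above them for Axin2, while the groups overlap for the other 8 genes.

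Ass1 encodes argininosuccinate synthase, which joins citrulline and aspartate in the urea cycle. Its log2 scaled value was 9.04, 9.31 and 9.04 in L1-Tg pools 1, 2 and 3, and 9.43, 9.40 and 9.65 in WT pools 1, 2 and 3. Every L1-Tg pool was below every WT pool, by the narrowest margin in L1-Tg pool 2. The difference was -0.36 (SE 0.12, 95% interval -0.66 to -0.06, n = 3 per group), a ratio of 0.778, with a limma p of 0.0254 and an adjusted p of 0.520. Its size depended on the scaling and was -0.16 with quantile normalization (unadjusted limma p 0.319) and -0.24 with array median scaling (0.187). The unadjusted p was also above 0.05 without scaling (0.0900), with the authors' normalized intensities (0.0523) and with the replicate block (0.0603). Without L1-Tg pool 1, L1-Tg pool 3 or WT pool 3 it was 0.0822, 0.0841 and 0.0778. A further Ass1 probe for the same transcript gave a difference of -0.36 with groups that did not overlap either. An exact permutation test of 3 against 3 pools cannot give a p below 0.1, which Ass1 and Axin2 reached.

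Cps1 encodes the mitochondrial carbamoyl phosphate synthetase that feeds ammonia into the urea cycle. It measured 5.57, 5.68 and 5.28 in the L1-Tg pools and 5.52, 5.49 and 6.07 in the WT pools. WT pool 3 was the highest and L1-Tg pool 3 the lowest, and the other 4 values were close together. The difference was -0.18 (SE 0.19, 95% interval -0.65 to 0.29, limma adjusted p 0.764), and without WT pool 3 it was 0.0049. Its direction therefore rested on that pool.

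Hal, Sds and Gls2 release ammonia from histidine, serine and glutamine. Hal, histidine ammonia-lyase, measured 6.00, 6.70 and 5.86 in the L1-Tg pools and 6.43, 6.46 and 6.91 in the WT pools. Sds, serine dehydratase, which yields pyruvate for gluconeogenesis, measured 4.82, 5.94 and 4.88 in the L1-Tg pools and 5.76, 5.71 and 6.38 in the WT pools. Gls2, the liver-type glutaminase, measured 6.69, 7.23 and 6.85 in the L1-Tg pools and 7.04, 6.95 and 7.37 in the WT pools. In all 3 genes L1-Tg pools 1 and 3 lay below every WT pool, and L1-Tg pool 2 lay between the WT values. Sds had the widest difference of the 10 genes, -0.74 (SE 0.34, 95% interval -1.57 to 0.09), a ratio of 0.599, with a limma p of 0.0731 and an adjusted p of 0.579. The difference was -0.41 for Hal (SE 0.25, limma adjusted p 0.642) and -0.19 for Gls2 (SE 0.18, limma adjusted p 0.729). The absolute difference of Sds lay at the 96.1st percentile of all genes tested.

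**Figure D2:**
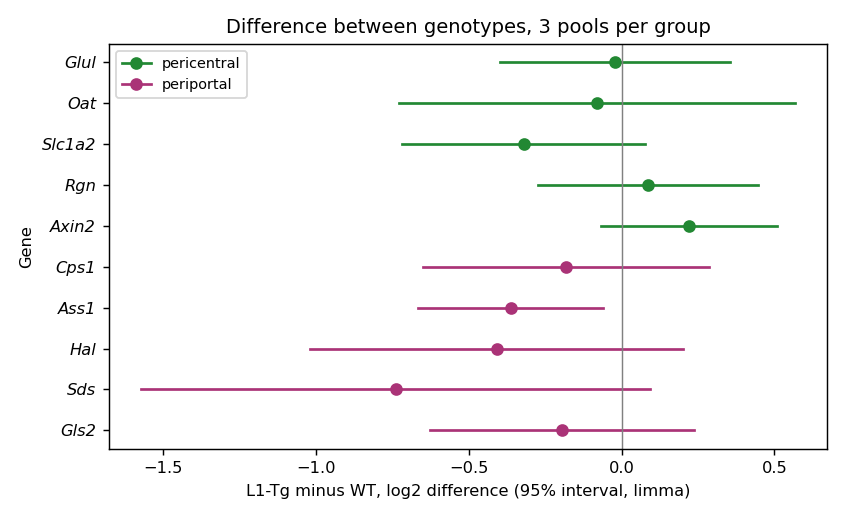
Difference between L1-Tg and WT means of each of the 10 genes on the log2 scale, as points with 95% intervals from limma (n = 3 pools per group). The Ass1 interval, -0.66 to -0.06, is the one that leaves out 0, and the Sds interval is the widest.

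The pools shared some positions across the periportal genes but not the whole order. In Cps1, L1-Tg pools 1 and 2 lay above WT pools 1 and 2. WT pool 3 was the highest of the 6 pools in 5 of 5, L1-Tg pool 1 or 3 was the lowest in 5 of 5, and L1-Tg pool 2 was the highest of the L1-Tg pools in 5 of 5. Over all genes tested these shares were 15.4%, 38.5% and 35.8%, and over the pericentral genes the counts were 0, 3 and 0 of 5. These shared positions were not particular to the 5 genes. In lists described below the counts were 5, 6 and 7 of 8 for the urea cycle and 6, 9 and 11 of 14 for periportal companions. They were 7, 8 and 9 of 12 for glutamine, glutamate and proline handling, and 2, 6 and 7 of 15 for pericentral companions. Sds and Gls2 ordered the 6 pools identically. The 5 genes share the same 6 libraries, so the positions they have in common are not 5 separate observations. The positions counted were also read from the values of these same genes. The counts therefore describe the order and are no support for it.

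L1-Tg pool 2, which carried the pancreas and erythroid signal, was also the L1-Tg pool closest to WT in the periportal genes. Without it the differences were wider, at -0.27 for Cps1, -0.45 for Ass1, -0.67 for Hal, -1.10 for Sds and -0.35 for Gls2. Leaving out some other pools narrowed them, at the most to -0.28 for Ass1, -0.52 for Sds and -0.072 for Gls2 (each without WT pool 3) and to -0.24 for Hal (without L1-Tg pool 3). Since L1-Tg pool 2 was the L1-Tg pool among the WT values, leaving it out removed the overlap of Hal, Sds and Gls2 by construction. Sds then had an unadjusted limma p of 0.00453 and an adjusted p of 0.385, and 0 of 10 genes were called.

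The pericentral genes that handle ammonia and its products showed small differences. Glul encodes glutamine synthetase, the enzyme of the rim around the central vein, and measured 5.46, 5.45 and 4.97 in the L1-Tg pools and 5.32, 5.40 and 5.22 in the WT pools. Oat encodes ornithine aminotransferase, which routes ornithine toward glutamate, and measured 5.80, 5.72 and 5.28 in the L1-Tg pools and 5.13, 5.97 and 5.95 in the WT pools. For both genes the WT values lay within or across the L1-Tg range. The difference was -0.02 for Glul (SE 0.16, 95% interval -0.40 to 0.35, limma adjusted p 0.975) and -0.08 for Oat (SE 0.27, 95% interval -0.73 to 0.57, limma adjusted p 0.932). The direction of Glul turned under quantile normalization (0.049), array median scaling (0.10), no scaling (0.035), the authors' normalized intensities (0.029) and normexp background correction (0.0039), and that of Oat under array median scaling (0.039). Array median scaling also moved the median of all genes from -0.03 to 0.09.

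Slc1a2 encodes the glutamate transporter GLT-1, which pericentral hepatocytes use to take up glutamate for glutamine synthesis. Its brightest probe measured 3.02, 2.99 and 2.78 in the L1-Tg pools and 2.97, 3.55 and 3.23 in the WT pools. WT pool 1 fell among the L1-Tg values, and the other WT pools were above them. The difference was -0.32 (SE 0.16, 95% interval -0.72 to 0.08, limma p 0.0974, adjusted p 0.608). The array holds 3 probes for Slc1a2 and they were not alike. A probe for another RefSeq transcript gave -0.09, and a further probe annotated to that same transcript gave -0.44 with groups that did not overlap and an unadjusted limma p of 0.0195 (0.506 adjusted over probes). Both were dim, at 88.1 to 129 processed units for the former and 48.9 to 83.7 for the latter. The brightest probe was at 2314 to 3668 units.

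Rgn encodes regucalcin, a gluconolactonase and calcium-binding protein. It measured 7.05, 7.32 and 7.57 in the L1-Tg pools and 7.31, 7.14 and 7.22 in the WT pools. The L1-Tg values spanned the WT values on both sides, and the difference was 0.09 (SE 0.15, limma adjusted p 0.854). Without L1-Tg pool 3 it was -0.041.

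Axin2 encodes a scaffold of the beta-catenin destruction complex. It measured -2.30, -2.21 and -2.16 in the L1-Tg pools and -2.65, -2.32 and -2.37 in the WT pools. Every L1-Tg pool was above every WT pool, although L1-Tg pool 1 and WT pool 2 differed by little. The difference was 0.22 (SE 0.12, 95% interval -0.07 to 0.51, limma p 0.110, adjusted p 0.616). The probe was dim, with processed intensities of 50.1 to 76.5 units, below the 75th percentile of every array. The difference was 0.13 with normexp background correction (limma adjusted p 0.673) and 0.30 with quantile normalization (0.534). The other Axin2 probe was well above background in 1 of 3 pools of each group and gives no test.

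**Figure D3:**
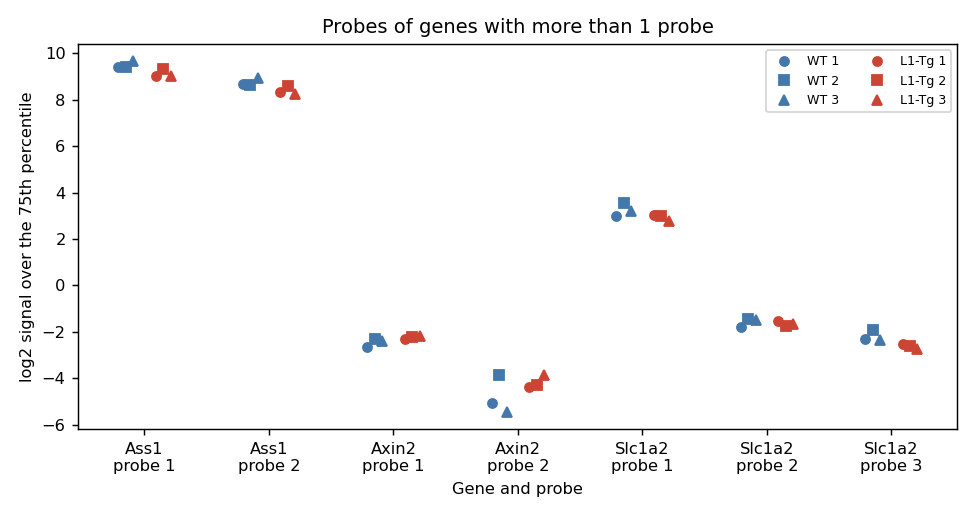
Log2 signal over the 75th percentile of the array in each pool, 1 column per probe, for the genes of the list with several probes (Ass1, Axin2 and Slc1a2). Both Ass1 probes have L1-Tg pools below all WT pools, while of the 3 Slc1a2 probes 1, the dimmest, has groups that do not overlap.

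The methods of the study score a gene by a difference index, the difference of the group means divided by the sum of the group SDs on linear intensities, and call a modulus over 0.7 a change. On the linear scaled signals 3 of 10 genes were past that value, Ass1 at -1.19, Axin2 at 0.90 and Slc1a2 at -0.77. The same was so for 26.5% of all genes tested. Slc1a2 was no longer past it without scaling or with the authors' normalized intensities, which left 2 genes, and at a modulus over 1 Ass1 stayed on the scaled signals. On the authors' normalized intensities Axin2 was at 1.07 and Ass1 at -0.95. The share of all genes was counted only for a modulus over 0.7 on the scaled signals.

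Averaged within a zone, the deviation from the WT mean was -0.38 ± 0.33 (SD, n = 3) for the periportal genes in L1-Tg pools and -0.02 ± 0.08 for the pericentral genes. Periportal minus pericentral was -0.54, -0.05 and -0.47 in L1-Tg pools 1, 2 and 3, and 0.05, -0.31 and 0.26 in WT pools 1, 2 and 3. L1-Tg pool 2 and WT pool 2 crossed, so the groups overlapped. The group means differed by -0.35, with SDs of 0.27 and 0.29. Leaving out single pools gave -0.51 to -0.23. Taken as medians, the periportal companions deviated by -0.40, 0.03 and -0.40 in L1-Tg pools 1, 2 and 3, and the pericentral companions by 0.0037, 0.06 and 0.04.

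**Figure D4:**
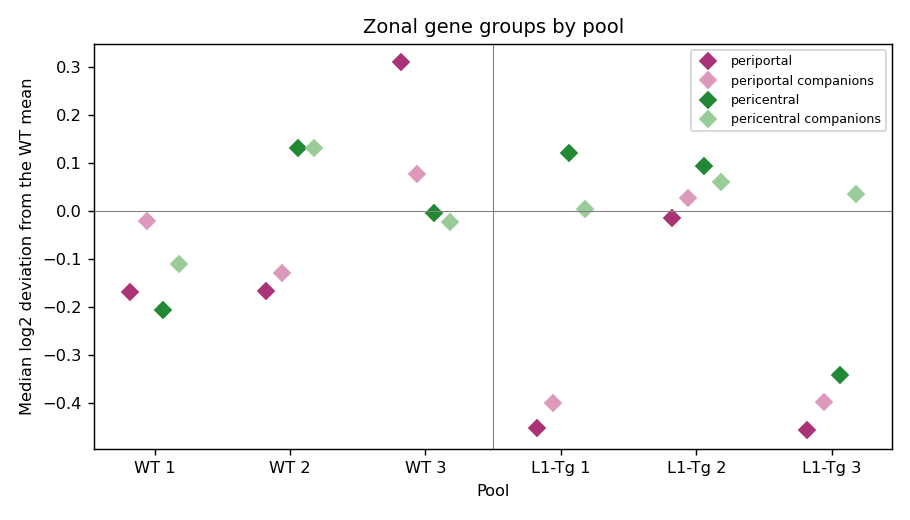
Median deviation from the WT mean, on the log2 scale, of the 5 periportal genes, the 5 pericentral genes and their companion lists in each WT and L1-Tg pool, 1 diamond per list and pool. The periportal genes lie at -0.45 and -0.46 in L1-Tg pools 1 and 3 and at -0.01 in L1-Tg pool 2, while the pericentral genes lie at 0.12, 0.09 and -0.34 in L1-Tg pools 1, 2 and 3.

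The other genes of these pathways were counted from lists by function, 102 genes of which 92 could be tested. The difference was negative for 66 and positive for 26 of them, and their median was -0.11. With limma 0 of 92 were called, 12 had an unadjusted p under 0.05, and 17 (18.5%) had groups that did not overlap, beside 15.9% of all genes tested. The smallest adjusted p was 0.340, for Agxt. Signs of small medians depended on the scaling: with array median scaling, which moved the median of all genes to 0.09, the median was 0.016 for the urea cycle list, 0.0056 for amino acid catabolism, 0.091 for pericentral companions and 0.10 for the 5 pericentral genes. Under the same scaling it stayed negative for the 5 periportal genes (-0.24), their companions (-0.17) and glutamine, glutamate and proline handling (-0.10).

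All 14 periportal companions tested had a negative difference under the scaling used here, 13 without scaling or with the authors' normalized intensities, 10 with quantile normalization and 9 with array median scaling. Over all genes tested the negative share was 57.1% here, 45.0% without scaling, 46.4% with the authors' intensities, 46.5% with quantile normalization and 31.6% with array median scaling. The median of the list was -0.30, with 2 at an unadjusted p under 0.05 and 0 called. Igfbp2, which binds insulin-like growth factors, differed by -0.48 (SE 0.15, limma adjusted p 0.498). Pck1, the gatekeeper enzyme of gluconeogenesis, differed by -0.46 (SE 0.16, limma adjusted p 0.518), and Pigr, which carries IgA into bile, by -0.65 (SE 0.28, limma adjusted p 0.564). The widest differences in the list, named after their values were seen, were those of Mfsd2a, a lysophospholipid transporter, at -1.10, and G6pc, the last enzyme of glucose release, with means of 4.43 ± 1.01 in L1-Tg and 5.43 ± 0.22 in WT (SD, n = 3). G6pc measured 3.66, 5.58 and 4.05 in the L1-Tg pools and 5.32, 5.29 and 5.69 in the WT pools, so here too L1-Tg pool 2 lay among the WT pools and the other L1-Tg pools below them.

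Genes of the urea cycle and its carriers had 8 of 8 negative differences, most of them small, with a median of -0.10, but 6 of 8 with quantile normalization and 3 of 8 with array median scaling. Slc25a13, the mitochondrial aspartate and glutamate carrier citrin, differed by -0.44 (SE 0.14, limma adjusted p 0.488) and was the single gene of the list with groups that did not overlap. Nags, which makes the activator of Cps1, differed by -0.24, and Asl, argininosuccinate lyase, by -0.42 (SE 0.33, limma adjusted p 0.689). Arg1 and Otc, urea cycle enzymes named after their values were seen, differed by -0.09 and -0.10. Arg2 and Slc25a2 were not well above background in any pool.

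In glutamine, glutamate and proline handling 11 of 12 differences were negative, with a median of -0.22 and 3 genes (25%) whose groups did not overlap, all lower in L1-Tg, beside 8.7% of all genes in that direction. With array median scaling 9 of 12 were negative. Prodh2, a proline and hydroxyproline dehydrogenase, differed by -0.35 (SE 0.11, limma adjusted p 0.486). Slc7a2, a carrier of cationic amino acids, differed by -0.57 (SE 0.20, limma adjusted p 0.530), and Gpt, alanine aminotransferase, by -0.18 (SE 0.09, limma adjusted p 0.594).

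**Figure D5:**
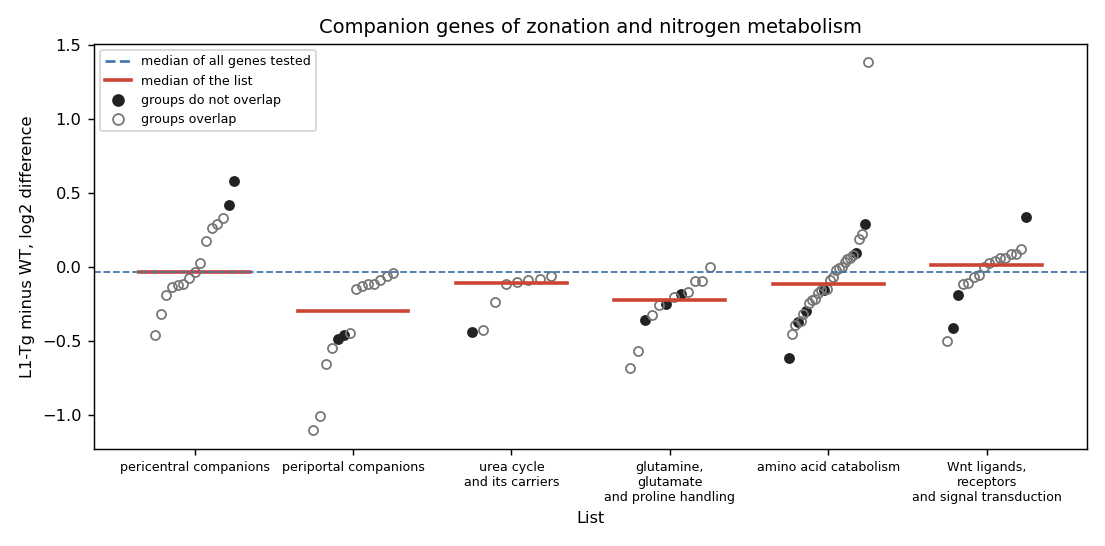
Difference between L1-Tg and WT means on the log2 scale for every tested gene of the 6 companion lists, 1 point per gene (filled where the groups do not overlap), with the median of each list as a bar and that of all genes tested as a dashed line. With this scaling all 14 periportal companions lie below 0, while the pericentral companions and the Wnt genes lie on both sides.

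The list of amino acid catabolism had 19 negative and 9 positive differences among 28 genes and a median of -0.12, beside 57.1% negative over all genes tested. With array median scaling 14 were negative and 14 positive, beside 31.6% negative over all genes. The list holds 3 genes of serine synthesis (Phgdh, Psat1 and Psph), all positive and set apart after their values were seen. Without them the count was 19 negative and 6 positive and the median -0.15. Removing positive genes could move the list in this direction only. Agxt, the alanine-glyoxylate aminotransferase that detoxifies glyoxylate, measured 6.49, 6.90 and 6.88 in the L1-Tg pools and 7.43, 7.29 and 7.38 in the WT pools. These did not overlap, and the difference was -0.61 (SE 0.14, limma adjusted p 0.340). Ftcd and Uroc1, which act downstream of Hal in histidine breakdown, differed by -0.37 (SE 0.10, limma adjusted p 0.458) and -0.30 (SE 0.11, limma adjusted p 0.546).

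Pericentral companions were split, with 7 positive and 8 negative differences and a median of -0.03. Cldn2, a tight junction protein, measured 1.94, 1.75 and 2.27 in the L1-Tg pools and 1.38, 1.45 and 1.38 in the WT pools. The groups did not overlap, and the difference was 0.58 (SE 0.15, limma adjusted p 0.406). Slc13a3, a dicarboxylate transporter, differed by 0.42 (SE 0.18, limma adjusted p 0.564), and Cyp7a1, the rate-limiting enzyme of bile acid synthesis, by -0.45 (SE 0.22, limma adjusted p 0.587). Named after their values were seen, Lgr5, a receptor that amplifies Wnt signals, differed by -0.31 and Cyp2e1, a pericentral cytochrome, by -0.11.

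Wnt ligands, receptors and transducers had 9 positive and 7 negative differences and a median of 0.02, which turned negative with the mean of all probes (-0.072), no filter on dim probes (-0.025) and without L1-Tg pool 2 (-0.023), L1-Tg pool 3 (-0.0041), WT pool 1 (-0.048) or WT pool 3 (-0.048). With array median scaling it was 0.14. Fzd8 and Fzd7, receptors for Wnt ligands, differed by -0.41 (SE 0.16, limma adjusted p 0.546) and 0.34 (SE 0.15, limma adjusted p 0.564). Tcf7l1, a TCF factor that can repress targets, differed by -0.50 (SE 0.19, limma adjusted p 0.547). Rspo3, an enhancer of Wnt signals at the central vein named after its values were seen, differed by 0.03. For the ligand Wnt2 only 1 of 3 WT pools gave a signal clear of background, so its difference is not given, though it is among the 9 positive ones. With the filter requiring all 6 arrays, which leaves Wnt2 out, 8 were positive and 7 negative, with a median of 0.0035. Dkk1 and Wif1, secreted inhibitors, were not well above background in any pool.

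Without L1-Tg pool 2, 0 genes of any of these lists were called. The groups then did not overlap for 27.4% of all genes, 15.9% lower in L1-Tg. Of periportal companions 8 of 14, of glutamine, glutamate and proline handling 6 of 12 and of the urea cycle list 3 of 8 then had no overlap, all lower in L1-Tg. Amino acid catabolism had 10 lower and 3 higher of 28, Wnt genes 4 lower and 1 higher of 16, and pericentral companions 2 lower and 3 higher of 15. As with Hal, Sds and Gls2, counts made by leaving out a pool that lay among the WT values are not separate support. The part of the pancreas and erythroid signal in the values of that pool was not tested.

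Across the 6 pools, the genes whose log2 values followed Glul most closely were Bpifa3 (Pearson r 0.998), AAdacl4fm3 (0.993), Fstl3 (0.974), Il20rb (0.973) and Slc5a9 (0.971). For Cps1 they were Zfp667 (0.991), Flvcr2 (0.986), Tmem82 (0.986), Col9a2 (0.985) and Prodh (0.983), the last of which breaks down proline. With 6 points and all tested genes searched, values this high describe likeness in these arrays and carry no test.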

How the data were processed

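RNA of 6 liver pools, 3 L1-Tg and 3 WT, was measured on 1-color arrays of 62976 spots. Scanner images were digitised by the authors in Feature Extraction (version 10.10.1.1, per the file headers). The deposited processed signals are intensities on the linear scale, after background subtraction, with each array left on its own scale. The authors' normalized intensities, deposited as a matrix, equal the processed signals times 1 factor per array, whose basis is not given in the sources used here. The deposited marks for spots well above background (0 or 1) served as the filter, and the authors' spot and local background intensities were used for normexp.

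Control spots were left out, non-uniform spots (1 to 22 per array) were set as missing, and 432 repeated probes were averaged. Of 28685 probes with a RefSeq name, 27235 matched a symbol. A gene was read by its brightest probe. Signals were taken as log2 minus the 75th percentile of the array, and a gene was tested if every array of 1 or both groups marked it well above background. Differences were tested with limma 3.58.1 (lmFit and eBayes, two-sided, Benjamini-Hochberg over 22323 genes, threshold 0.05) in R 4.3.3, with data.table (1.17.8) and jsonlite 2.0.0. The test was tested on simulated data. The number of arrays limits the precision.

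The 10 genes and the companion and marker lists were chosen with earlier results of these data known. Named were all 10 genes, the 3 genes of each companion list with the smallest p, and any with groups that did not overlap and a log2 difference of at least 0.5. For Glul and Cps1 the 5 most correlated genes were named. Alternatives were other scalings (quantile, array median, none, the authors' intensities), normexp with offset 50, no filter, a filter requiring all 6 arrays, averaging the probes of a gene, the replicate number as a block, the methods' t-test (described there for other measurements) and leaving out each pool. Counts of non-overlap without L1-Tg pool 2, counts of signs per list and counts of pool order were added after seeing the data.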

Additional observations from a re-analysis of the deposited data

How the results depend on the processing

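No member of the list was called under any of the 16 alternatives, with a smallest adjusted p between 0.385 and 0.934. Slc1a2, Axin2, Ass1, Hal, Sds and Gls2 kept their direction in all 16, but not their size. With quantile normalization Ass1 and with it the periportal median moved from -0.36 to -0.16, and Gls2 from -0.19 to -0.085. Glul turned positive with quantile normalization (0.049), array median scaling (0.10), no scaling (0.035), the authors' normalized intensities (0.029) and normexp (0.0039), and Oat with array median scaling (0.039). Leaving out 1 pool gave -0.10 to 0.14 for Glul, -0.36 to 0.080 for Oat, -0.041 to 0.22 for Rgn, -0.28 to 0.0049 for Cps1, -0.45 to -0.28 for Ass1, -0.67 to -0.24 for Hal, -1.10 to -0.52 for Sds, -0.35 to -0.072 for Gls2, -0.46 to -0.17 for Slc1a2 and 0.12 to 0.29 for Axin2. Over all genes tested, 29 were called. The count was 10 with no filter on dim probes, 19 with the mean of all probes of a gene, 11 with the replicate number as a block, 0 with the methods' t-test, named there for other measurements than arrays (1839 at an unadjusted p under 0.05, 1981 with limma) and 15 to 35 with 1 pool left out. At a difference index over 1 in modulus, 1 of the 10 genes was past it, and the share of all genes past that value was not counted. Periportal genes without overlap numbered 1 of 5, beside 15.9% of all genes tested. Without L1-Tg pool 2, the L1-Tg pool nearest to WT, they numbered 4 of 5, beside 27.4% of all genes. Leaving out that pool removed overlap by construction, so the second count is not separate support. The replicate numbers gave correlations of -0.16, 0.11 and 0.02 between same-numbered pools, and not every pool correlated best with its own number. With 3 pools per group these values cannot decide whether the numbers pair the pools. Same-numbered pools lay in the same column of the slide, 1, 2 or 3. The block called 0 of the 10 genes. The cause of these shifts was not tested. Genes not well above background in either group could not be compared.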

Other observations

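Markers of other liver cells were read beside the zonation genes, and limma called 0 genes in all 9 marker lists. The lymphocyte sum did not overlap between the groups, with L1-Tg pools from 13.6 upward but all below the WT pools at 15.4 to 16.8 on the linear scaled signals, although the median log2 difference of its 6 markers was 0.22 and 1 of them had groups without overlap. Of the hepatocyte markers Apoa1, the main protein of high-density lipoprotein, had L1-Tg pools below all WT pools, with a difference of -0.49 (SE 0.18, limma adjusted p 0.531). It was the 1 of 10 in that list without overlap, beside 8.7% of all genes lower in that way. The list had a median difference of -0.09, and Ttr and Fgb were each positive at 0.04. Kupffer cell markers, which include the lectin Clec4f, the scavenger receptor Marco and Cd5l, summed to 155 to 182 in L1-Tg pools and 97.8 to 181 in WT pools on the linear scaled signals. Their median difference was 0.31 on the log2 scale, and no marker had groups without overlap. Sinusoidal endothelium markers summed to 109 to 113 in L1-Tg pools and 103 to 113 in WT pools. Neutrophil markers summed to 4.14 to 7.73 in L1-Tg pools and 2.27 to 5.09 in WT pools, and their median log2 difference over the 3 tested was 0.87. The part of these cells in the zonation values was not tested.

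The genes of serine synthesis had positive differences beside the negative one of Sds, and none of them passed the test. Psat1, phosphoserine aminotransferase, measured -2.77, -1.32 and -0.19 in the L1-Tg pools and -2.38, -3.30 and -2.76 in the WT pools, so L1-Tg pool 1 lay among the WT values and the other L1-Tg pools above them. The log2 difference was 1.38 (SE 0.64). Phgdh, the enzyme that opens the pathway, measured -2.49, -2.23 and -2.14 in the L1-Tg pools and -2.52, -2.61 and -2.63 in the WT pools, without overlap, and differed by 0.30 (SE 0.12). Psph, the phosphatase that ends the pathway, differed by 0.056 (SE 0.17). The probes of Phgdh and Psat1 were dim, below the 75th percentile of every array. Processed intensities were 51.5 to 76.1 units for Phgdh, and for Psat1 31.9 to 60.6 in WT pools and 55.3 to 296 in L1-Tg pools. Each of these genes has 2 probes on the array, and only the brightest is given here. The genes were chosen after their values were seen, and the limma adjusted p was 0.577 for Psat1, 0.552 for Phgdh and 0.927 for Psph.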
